A study of Homo sapiens with 16 samples.

Results

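The 8 transcription factor genes studied, PHOX2A, HAND1, HAND2, GATA2, GATA3, ISL1, TBX2 and INSM1, belong to the adrenergic core of neuroblastoma and were followed through the RNA sequencing of SH-SY5Y cells, an established human neuroblastoma line of noradrenergic type. They were taken by matching gene symbols to the Ensembl identifiers of the tables, and all 8 were found among the 26410 genes listed. The study used 4 single-cell clones. KO11 and KO28 had received a CRISPR guide against the cation channel gene TRPM2, and Scr13 and Scr16 a scrambled guide. Every clone also carries the GFP and puromycin resistance cassette of the cotransfected donor vector. Each clone gave 2 libraries from cells kept in medium and 2 from cells given doxorubicin (Doxo), a topoisomerase poison, both for 24 h, so that each of the 4 groups (Scr untreated, TRPM2 KO untreated, Scr Doxo, TRPM2 KO Doxo) holds 4 libraries from 2 clones. The sample labels give a dose of 0.3 µM, while the series text gives 3 µM. The genotype is therefore represented by 2 clones on each side, and differences between clones and differences between genotypes cannot be fully told apart. The methods call the 2 libraries of a clone biological replicates without saying what was repeated, and p-values measure the spread between these libraries. In limma, the spread of each gene is also drawn towards that of other genes at a similar level.

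The adrenergic core factors are DNA-binding proteins that bind regulatory elements of one another's genes and of their own, and together they maintain the sympathetic, noradrenaline-producing identity from which most neuroblastomas arise. Neuroblastoma cells can also take a mesenchymal state, in which these factors are low and genes of matrix, adhesion and motility are high. PHOX2A and ISL1 are homeodomain proteins, HAND1 and HAND2 basic helix-loop-helix proteins, GATA2 and GATA3 zinc finger proteins that recognise the letters GATA, TBX2 a T-box repressor, and INSM1 a zinc finger factor of neuroendocrine progenitors.

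Values are normalized CPM, that is, reads on a gene relative to all reads of its library, after scaling between libraries. Reads assigned to genes numbered 10481177 to 25086085 per library (median 16037366.5). Reads on the targeted gene went against the genotype label. According to the methods, the clones had been checked by RT-PCR and Western blot, and the edit removed the DNA for the start of the protein and put the rest out of frame. TRPM2 was at 1.93 and 2.23 normalized CPM in untreated KO11, 1.41 and 2.19 in untreated KO28, 0.118 and 0.115 in untreated Scr13 and 0 in both untreated Scr16 libraries. After Doxo it was at 1.22 and 1.83 in KO11, 1.37 and 0.658 in KO28, 0.0594 and 0.0631 in Scr13, and 1.33 and 0.390 in Scr16. The untreated libraries labelled TRPM2 KO thus held 123 TRPM2 reads in all against 5 in the untreated Scr libraries, without overlap, and after Doxo they held 80 against 22, with overlap through Scr16. Reads summed over a gene cannot tell edited from unedited transcripts, and every direction below is that of the libraries labelled TRPM2 KO.

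HAND2 and ISL1 are the members that moved with Doxo in both genotypes, and the DNA before their start sites is shown because it holds letters that other members of the circuit recognise. The RefSeq windows (GRCh38.p14, 250 bases before to 50 after each start) hold 12 windows for 6 of the 8 members, with no entry for TBX2 and INSM1. HAND2 is on the minus strand, and its stretch, chr4:173530230-173530479, lies inside the span of the antisense gene HAND2-AS1. ISL1 is on the plus strand, and its stretch, chr5:51383198-51383390, ends where the longest annotated ISL1 transcript starts. Capitals mark matches to the GATA letters (AGATAA or TGATAA or AGATAG or TGATAG) and to the homeodomain letters TAATTA, searched on both strands.
HAND2: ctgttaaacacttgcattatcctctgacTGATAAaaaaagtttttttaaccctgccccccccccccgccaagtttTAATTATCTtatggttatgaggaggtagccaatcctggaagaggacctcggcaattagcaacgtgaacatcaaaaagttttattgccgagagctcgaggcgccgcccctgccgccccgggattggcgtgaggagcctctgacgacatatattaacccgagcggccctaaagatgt
ISL1: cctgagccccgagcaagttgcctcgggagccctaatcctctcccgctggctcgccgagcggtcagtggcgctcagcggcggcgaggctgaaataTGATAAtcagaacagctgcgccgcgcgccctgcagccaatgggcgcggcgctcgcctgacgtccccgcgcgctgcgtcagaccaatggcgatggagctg
In the HAND2 stretch TGATAA starts 222 bases before the start site, and TAATTA, at 175 bases, overlaps a reverse GATA match at 172 bases. In the ISL1 window TGATAA starts 156 bases before the RefSeq start, and AGATAA, at 31 bases, falls beyond the stretch shown. Of all 35116 windows, 25.0% hold such a GATA match and 4.84% hold TAATTA, so a GATA match is common. The T-box letters AGGTGT, held by 11.4% of windows, were in the PHOX2A window and in 1 of the 6 GATA3 windows, and the letters CATCTG, taken for HAND proteins and held by 14.7%, were in none of the 12. HAND1 and both GATA2 windows held none of the letters searched. These are matches of letters in short windows, not sites shown to be bound.

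Of the 8 genes, 7 were expressed well above the filter used for testing (at least 1 normalized CPM in at least 4 libraries), and INSM1 was not. Genes were compared with one another per kilobase of exon (GENCODE 29), since a longer transcript gives more reads. In untreated Scr cells HAND2 was at 389 ± 10.9 (SD, n = 4) and PHOX2A at 381 ± 44.7 normalized CPM per kb, GATA2 at 294 ± 20.8, GATA3 at 186 ± 20.8, HAND1 at 78.8 ± 8.36, ISL1 at 56.9 ± 5.64 and TBX2 at 39.2 ± 4.18. The 4 highest places were held by HAND2, PHOX2A, GATA2 and GATA3 in each group, and HAND2 and PHOX2A overlapped between libraries in all groups except TRPM2 KO Doxo. Below them the order depended on the group. ISL1 stood above TBX2 without overlap in untreated Scr cells, the pair overlapped in untreated TRPM2 KO and in Scr Doxo cells, and TBX2 (60.4 ± 3.67) stood above ISL1 (45.0 ± 3.34) without overlap in TRPM2 KO Doxo cells. The summed level of the 8 genes was 4566 ± 269 normalized CPM in Scr untreated, 4807 ± 348 in TRPM2 KO untreated, 5202 ± 164 in Scr Doxo and 5033 ± 228 in TRPM2 KO Doxo libraries.

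**Figure D1:**
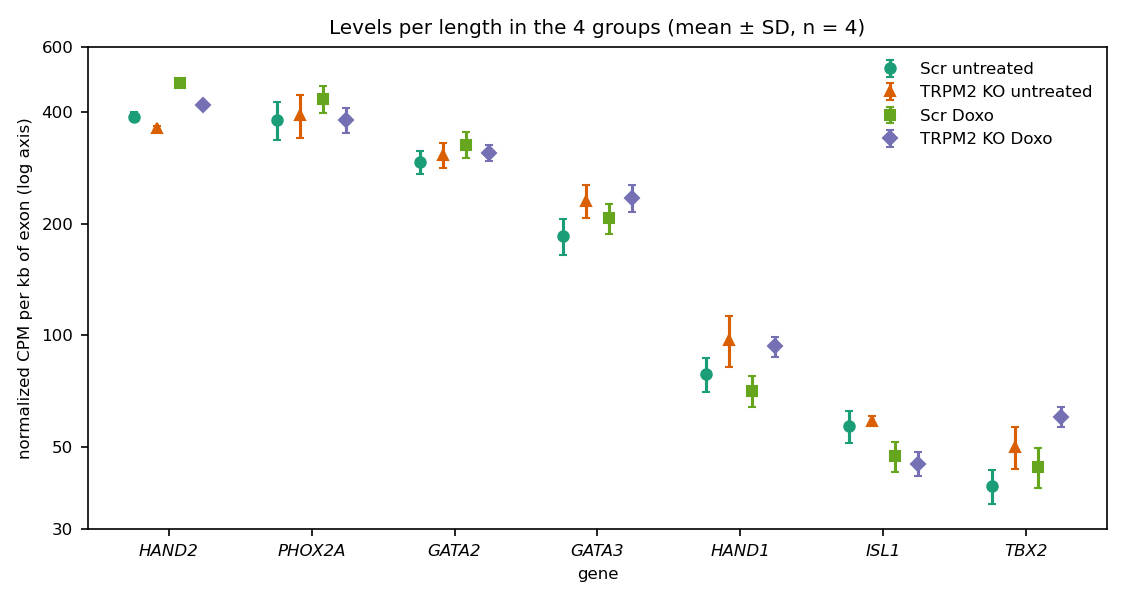
Level of the 7 detected factors per kilobase of exon (vertical log axis, normalized CPM per kb, mean ± SD of 4 libraries) in the 4 groups. HAND2 and PHOX2A lie highest, HAND1, ISL1 and TBX2 lowest, and ISL1 and TBX2 exchange places between untreated Scr (56.9 and 39.2) and TRPM2 KO Doxo libraries (45.0 and 60.4).

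The genotype comparisons asked which genes differ between clones labelled TRPM2 KO and Scr clones, before and after Doxo. In untreated cells TBX2 and GATA3 were higher in the libraries labelled TRPM2 KO, by 1.27 and 1.25 times. After Doxo TBX2 and HAND1 were higher, by 1.37 and 1.32 times. No member was called lower in either comparison by limma at an adjusted p of 0.05. That is 2 of 7 tested members in untreated cells, where 4.84% of all 14364 genes tested were called, and 2 of 7 after Doxo, where 8.69% of 14572 were. The groups did not overlap for 2 members in untreated cells (HAND2 and TBX2) and for 3 after Doxo (HAND1, HAND2 and TBX2), beside 9.29% and 13.2% of all genes. The median log2 fold change of the 7 members was 0.06 in untreated and -0.06 in Doxo libraries, beside -0.01 and 0.01 over all genes. Members of both signs were present in each comparison.

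Doxo was compared with medium within the Scr clones and within the clones labelled TRPM2 KO. HAND2 rose and ISL1 fell in both, and TBX2 also rose in the clones labelled TRPM2 KO. In Scr clones 2 of 7 members were called, beside 12.6% of 15325 genes, and in clones labelled TRPM2 KO 3 of 7, beside 17.7%. The groups did not overlap for HAND2 alone in Scr clones and for HAND2 and ISL1 in clones labelled TRPM2 KO, beside 16.5% and 19.0% of all genes. The median log2 change of the members was 0.16 and 0.02, beside -0.01 and 0.02 over all genes. The difference between the 2 Doxo responses (the genotype by treatment interaction) was called for 0 of 7 members by limma, with 0 at an unadjusted p under 0.05 and 0 called by edgeR, beside 0.0326% of all genes. All of these comparisons draw on the same 16 libraries and are not independent of each other. In RNA from whole cultures, a change in the share of cells that express a gene and a change in RNA per cell cannot be told apart.

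**Figure D2:**
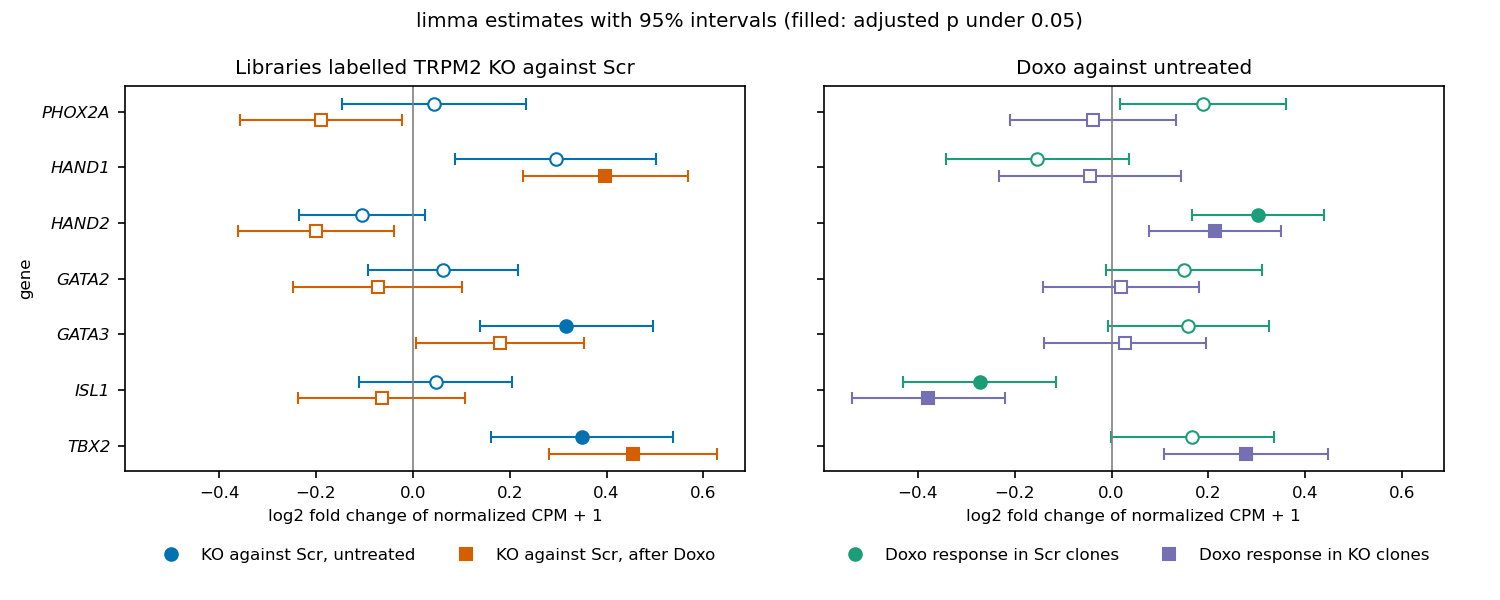
limma log2 fold changes of normalized CPM + 1 for the 7 tested factors (horizontal axis; points, estimates; bars, 95% intervals), libraries labelled TRPM2 KO against Scr on the left and Doxo against untreated on the right. Filled points passed an adjusted p of 0.05: GATA3 and TBX2 untreated and HAND1 and TBX2 after Doxo on the left, HAND2 and ISL1 in both genotypes and TBX2 in clones labelled TRPM2 KO on the right.

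TBX2 (chr17:61399896-61409466, plus strand) encodes a T-box protein that represses transcription and is known for holding back cell cycle inhibitors. In untreated Scr13 it was at 237 and 262.9 and in Scr16 at 202 and 243 normalized CPM, and in untreated KO11 at 266 and 296 and in KO28 at 287 and 359. All 4 libraries labelled TRPM2 KO were above all 4 Scr libraries, though KO11 replicate 1 and Scr13 replicate 2 lay close together. The log2 fold change was 0.35 ± 0.09 (SE, n = 4 and 4; limma, adjusted p = 0.0236; exact permutation p = 0.0286, two-sided, the smallest that 4 against 4 can give). The call, more than the size of the difference, depended on single libraries. It was lost without KO11 replicate 2 (0.36, adjusted p = 0.0521), Scr13 replicate 1 (0.35, 0.0506), Scr16 replicate 1 (0.28, 0.109), KO28 replicate 1 (0.37, 0.0524) or KO28 replicate 2 (0.26, 0.0733). It was also lost without the clone KO28 (0.25, 0.163) or Scr16 (0.27, 0.389) and with no filter on low genes (0.35, 0.200).

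After Doxo TBX2 was at 265 and 312 normalized CPM in Scr13, 232 and 256 in Scr16, 378 and 344 in KO11 and 346 and 387 in KO28. The groups were again separate, with KO11 replicate 2 and Scr13 replicate 2 the nearest to each other. The log2 fold change was 0.45 ± 0.08 (limma, adjusted p = 0.000847; exact permutation p = 0.0286), and it was called without any single library or clone. Within the clones labelled TRPM2 KO, TBX2 rose with Doxo by 0.28 ± 0.08 on the log2 scale (adjusted p = 0.0173), from 302 ± 39.9 to 364 ± 22.1 normalized CPM (SD, n = 4), with KO28 replicate 2 untreated inside the range of the Doxo libraries. That call was lost without KO11 untreated replicate 1 (0.23, adjusted p = 0.0924), KO11 Doxo replicate 1 (0.23, 0.0906), KO28 untreated replicate 1 (0.22, 0.0941) or KO28 Doxo replicate 2 (0.26, 0.0535), and without the clone KO11 the value was 0.19 (0.410). In Scr clones the value was 0.17 ± 0.08 (adjusted p = 0.200). The difference between the responses was 0.11 (95% interval -0.13 to 0.35). TBX2-AS1, which overlaps TBX2 on the opposite strand, had group means of 29.3 to 30.9 normalized CPM and was not called in any comparison.

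HAND1 (chr5:154474972-154478264, minus strand) and HAND2 (chr4:173524969-173530229, minus strand) encode related basic helix-loop-helix proteins that pair with E proteins. HAND2 is known for its need in sympathetic neuron development. Their genotype values had opposite signs. HAND1 in untreated libraries was at 117 and 152 normalized CPM in Scr13, 138 and 141 in Scr16, 141 and 155 in KO11, and 202 and 177 in KO28. KO28 was highest, and KO11 overlapped Scr13. The log2 fold change of 0.29 ± 0.10 did not pass (adjusted p = 0.113; exact permutation p = 0.0571), although it did without KO11 replicate 1 (0.38, adjusted p = 0.0279) and without the clone KO11 (0.47, adjusted p = 0.0102).

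After Doxo HAND1 was at 108 and 137 normalized CPM in Scr13, 121 and 127 in Scr16, 175 and 151 in KO11, and 158 and 164 in KO28. Both clones labelled TRPM2 KO were now above both Scr clones in every library. The log2 fold change was 0.40 ± 0.08 (limma, adjusted p = 0.00248; exact permutation p = 0.0286), and it was called in each of the 21 alternatives. Doxo itself gave -0.15 ± 0.09 in Scr clones (adjusted p = 0.306) and -0.04 ± 0.09 in clones labelled TRPM2 KO (adjusted p = 0.803).

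HAND2 had the tightest replicates of the 7 tested factors in each of the 4 groups, with an SD of 2.80% of the mean in Scr untreated, 1.64% in TRPM2 KO untreated, 1.58% in Scr Doxo and 1.74% in TRPM2 KO Doxo libraries. In untreated libraries it was at 1389 and 1402 normalized CPM in Scr13, 1359.5 and 1453.5 in Scr16, 1281 and 1289 in KO11, and 1323.5 and 1319 in KO28. After Doxo it was at 1765 and 1731 in Scr13, 1735 and 1698 in Scr16, 1494 and 1491 in KO11, and 1501 and 1548 in KO28. In both conditions every library labelled TRPM2 KO was below every Scr library, and in both genotypes every Doxo library was above every untreated one.

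The genotype difference of HAND2 was small, -0.10 ± 0.06 on the log2 scale in untreated cells (limma, adjusted p = 0.500; exact permutation p = 0.0286) and -0.20 ± 0.08 after Doxo (adjusted p = 0.131; exact permutation p = 0.0286), and limma and edgeR did not call it. DESeq2 on the recovered reads called it after Doxo (-0.20, adjusted p = 0.000837). The 95% interval of the limma value after Doxo ran from -0.36 to -0.04. The limma SE draws on the spread of other genes at a similar level, so it is not set by the tight HAND2 replicates alone. The Doxo response was 0.30 ± 0.07 in Scr clones (adjusted p = 0.00220), 1.23 times, and 0.21 ± 0.07 in clones labelled TRPM2 KO (adjusted p = 0.0235), 1.16 times, and their difference was -0.09 (95% interval -0.28 to 0.10). In Scr clones the call was lost without the clone Scr13 (0.28, adjusted p = 0.124) or Scr16 (0.32, 0.0642). In clones labelled TRPM2 KO it was lost without KO11 untreated replicate 1 (adjusted p = 0.0635) or 2 (0.0728), KO11 Doxo replicate 1 (0.0501), KO28 untreated replicate 1 (0.0546) or 2 (0.0557) or KO28 Doxo replicate 2 (0.0593), and without either clone (0.247 and 0.163), with values between 0.20 and 0.21 throughout.

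HAND2 overlaps HAND2-AS1 on the opposite strand, and the sources used here do not say whether reads were assigned by strand. HAND2-AS1 was at 513 ± 49.7 normalized CPM in Scr untreated, 458 ± 27.7 in TRPM2 KO untreated, 516 ± 20.3 in Scr Doxo and 516 ± 31.6 in TRPM2 KO Doxo libraries (SD, n = 4). It was not called in any comparison, and in Scr clones its Doxo response was 0.01 ± 0.07 on the log2 scale where that of HAND2 was 0.30. In clones labelled TRPM2 KO it was 0.17 ± 0.07 (adjusted p = 0.0927), where that of HAND2 was 0.21.

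**Figure D3:**
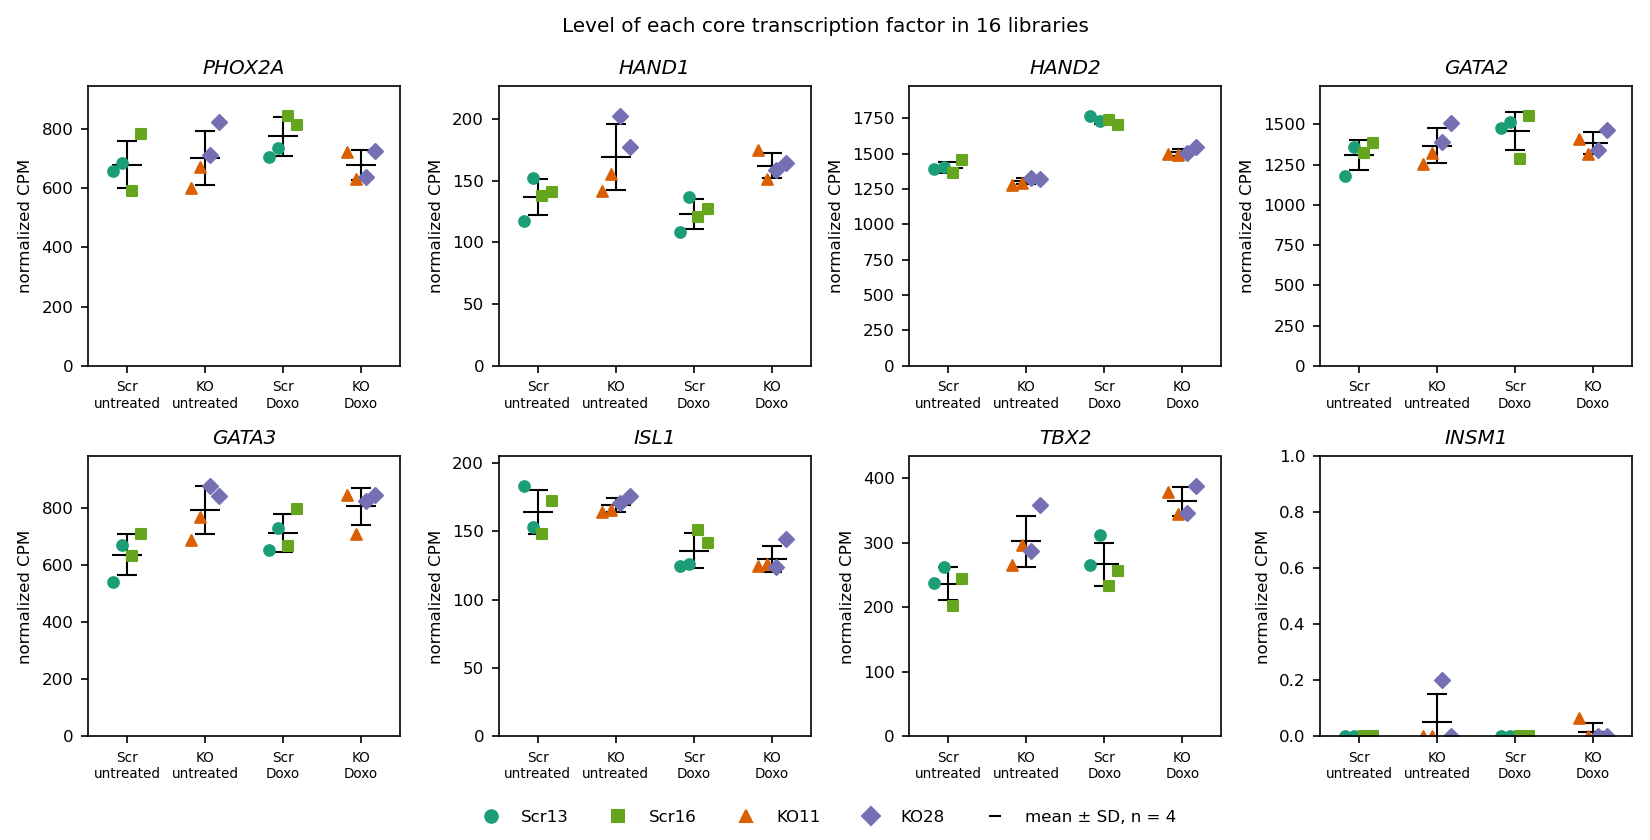
Normalized CPM (vertical axis, from 0) of the 8 factors in each of 16 libraries, by group, with 1 symbol per clone and the mean ± SD of 4 libraries in black. HAND2 and TBX2 separate by genotype in both conditions and HAND1 after Doxo, ISL1 is lower after Doxo, and INSM1 is at 0 in 14 libraries and at most 0.201 in the others.

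GATA2 (chr3:128479427-128493185, minus strand) and GATA3 (chr10:8045378-8075203, plus strand) encode zinc finger factors that bind the same letters, and GATA3 is known to be needed for noradrenaline synthesis in sympathetic neurons. GATA3 in untreated libraries was at 541 and 669.9 normalized CPM in Scr13, 631 and 708 in Scr16, 689.9 and 768 in KO11, and 876 and 842 in KO28. Of the Scr libraries 3 were below every library labelled TRPM2 KO, and Scr16 replicate 2 lay above KO11 replicate 1. The log2 fold change was 0.32 ± 0.09 (limma, adjusted p = 0.0344; exact permutation p = 0.0571). The call was lost without KO11 replicate 2 (0.33, adjusted p = 0.0602), Scr13 replicate 1 (0.24, 0.160), Scr16 replicate 1 (0.31, 0.0850), KO28 replicate 1 (0.27, 0.155) or KO28 replicate 2 (0.29, 0.0879). Without the clone Scr13 (0.24, 0.366), Scr16 (0.39, 0.0815) or KO28 (0.20, 0.323) it was lost too. It was also lost with no filter on low genes (0.32, 0.248) and with 1 mean per clone (0.32, 0.0921).

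After Doxo GATA3 was at 654 and 732 normalized CPM in Scr13, 666 and 797 in Scr16, 847 and 709.6 in KO11, and 825 and 845 in KO28. The groups overlapped through KO11 replicate 2, and the log2 fold change was 0.18 ± 0.08 (adjusted p = 0.224). The Doxo response was 0.16 ± 0.08 in Scr clones (adjusted p = 0.220) and 0.03 ± 0.08 in clones labelled TRPM2 KO (adjusted p = 0.870). GATA3-AS1, which overlaps GATA3 on the opposite strand, had group means of 19.2 to 22.8 normalized CPM and was not called in any comparison.

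GATA2 in untreated libraries was at 1176.5 and 1359 normalized CPM in Scr13, 1321 and 1383.5 in Scr16, 1256.5 and 1323 in KO11, and 1388 and 1506 in KO28. After Doxo it was at 1475 and 1514 in Scr13, 1286 and 1552 in Scr16, 1408 and 1313.5 in KO11, and 1342 and 1467 in KO28. The groups overlapped throughout, and the log2 fold changes between genotypes were 0.06 (95% interval -0.09 to 0.22) untreated and -0.07 (-0.25 to 0.10) after Doxo. The Doxo response was 0.15 ± 0.08 in Scr clones (adjusted p = 0.236) and 0.02 ± 0.08 in clones labelled TRPM2 KO (adjusted p = 0.907). The overlapping GATA2-AS1 did fall with Doxo in Scr clones, from 33.6 ± 3.31 to 18.4 ± 4.76 normalized CPM (log2 fold change -0.87 ± 0.14, adjusted p = 7.23e-05), and was at 28.5 ± 2.79 and 22.0 ± 1.48 in clones labelled TRPM2 KO (-0.35 ± 0.14, adjusted p = 0.0877). The difference of these responses was not called (0.51 ± 0.20, adjusted p = 0.484).

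PHOX2A (chr11:72239077-72245664, minus strand) encodes a paired-type homeodomain protein that activates DBH, the gene of the enzyme that makes noradrenaline. In untreated libraries it was at 658 and 686 normalized CPM in Scr13, 592 and 784 in Scr16, 601 and 672 in KO11, and 712 and 822 in KO28. The genotypes overlapped, with a log2 fold change of 0.04 (95% interval -0.15 to 0.23). After Doxo it was at 705 and 737 in Scr13, 844 and 815 in Scr16, 722 and 630.2 in KO11, and 639 and 725 in KO28.

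After Doxo, 2 of the libraries labelled TRPM2 KO lay below all Scr libraries and 2 within the Scr13 range, and the log2 fold change of PHOX2A, -0.19 ± 0.08, did not pass (adjusted p = 0.175; exact permutation p = 0.114). Its Doxo responses were 0.19 ± 0.08 in Scr clones (adjusted p = 0.146) and -0.04 ± 0.08 in clones labelled TRPM2 KO (adjusted p = 0.813). Their difference, -0.23 (95% interval -0.47 to 0.01, adjusted p = 0.637), was the largest among the members in the interaction and was not called. PHOX2A overlaps INPPL1 on the opposite strand, and the counting by strand is not given in the sources used here. DBH was at 1204 to 2140.3 normalized CPM over the 16 libraries and fell with Doxo in clones labelled TRPM2 KO (-0.36 ± 0.10, limma, adjusted p = 0.00831). In Scr clones its mean was also lower after Doxo, 1418 ± 202 beside 1635.5 ± 219 untreated (SD), but it was not called. The difference between the 2 DBH responses was not called either.

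ISL1 (chr5:51383391-51394738, plus strand) encodes a LIM-homeodomain protein of sympathetic and sensory neurons. Untreated, it was at 183 and 153 normalized CPM in Scr13, 148 and 172 in Scr16, 164 and 166 in KO11, and 170.3 and 176 in KO28. After Doxo it was at 125 and 126 in Scr13, 151 and 142 in Scr16, 125 and 126 in KO11, and 124 and 144 in KO28. All Doxo libraries of the clones labelled TRPM2 KO were below their untreated libraries, and in Scr clones 1 Doxo library of Scr16 lay above 1 untreated library of the same clone.

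ISL1 fell by 0.38 ± 0.08 on the log2 scale in clones labelled TRPM2 KO (limma, adjusted p = 0.000695), to 0.769 times, a call kept without any single library and lost without the clone KO11 (-0.37, adjusted p = 0.0605). In Scr clones it fell by 0.27 ± 0.08 (adjusted p = 0.0178), to 0.828 times. There the call was lost without Scr13 untreated replicate 1 (-0.20, adjusted p = 0.128), Scr13 Doxo replicate 1 (-0.24, 0.0758) or 2 (-0.26, 0.0521) or Scr16 untreated replicate 2 (-0.26, 0.0533), and without the clone Scr13 the value was -0.13 (0.572). The difference between the responses was -0.11 (95% interval -0.33 to 0.12). Between genotypes ISL1 differed by 0.05 (-0.11 to 0.20) untreated and -0.06 (-0.24 to 0.11) after Doxo. ISL1-DT, a noncoding gene that runs away from the ISL1 start on the other strand without overlapping it, went the other way: it rose with Doxo from 72.1 ± 1.82 to 91.4 ± 5.48 normalized CPM in Scr clones (0.33 ± 0.09, adjusted p = 0.00947) and from 58.5 ± 7.71 to 77.1 ± 4.28 in clones labelled TRPM2 KO (0.40 ± 0.09, adjusted p = 0.00126).

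INSM1 (chr20:20368121-20370949, plus strand) was not detected above 3 reads, which is the most that a library with none allows and corresponds to 0.118 to 0.285 normalized CPM depending on the library's depth. It had 3 reads (0.201 normalized CPM) in KO28 untreated replicate 1, 1 read (0.0640) in KO11 Doxo replicate 1 and 0 in the other 14 libraries, so no comparison was made. Its relative INSM2 was expressed, at 23.9 to 60.2 normalized CPM. INSM2 fell with Doxo in clones labelled TRPM2 KO (-0.55 ± 0.12, adjusted p = 0.00112), with overlap between the groups, and was not called in the other comparisons.

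Between clones of the same genotype limma called 0 of 7 members in KO28 against KO11, beside 0.0522% of 15325 genes, and 0 of 7 in Scr16 against Scr13, beside 0.0131%. edgeR also called 0 in both. At an unadjusted p under 0.05 there were 0 members in KO28 against KO11 and 1 in Scr16 against Scr13, TBX2, which was lower in Scr16 (-0.20 ± 0.08, adjusted p = 0.584). KO28 was above KO11 in the estimate for all 7 members, by 0.03 (HAND2) to 0.17 (GATA3). The clone differences were thus of the same order as several of the genotype differences: for GATA3 the estimate between the clones labelled TRPM2 KO was 0.17 ± 0.08 and that between genotypes 0.32 ± 0.09 untreated and 0.18 ± 0.08 after Doxo.

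Over the 16 libraries the members varied together only in part. The highest Pearson r of log2(normalized CPM + 1) between members were 0.78 for HAND1 and GATA3, 0.73 for GATA3 and TBX2, 0.62 for HAND1 and TBX2 and 0.62 for GATA2 and GATA3. The lowest were -0.68 for HAND2 and ISL1 and -0.54 for HAND1 and HAND2. The libraries share groups, clones and normalization, so these r describe the 16 points and carry no p. Among 14485 genes with a mean of at least 1 normalized CPM, the genes most like each member were NAB2 (0.95), ENSG00000261888 (0.93) and PMAIP1 (0.92) for TBX2, PACSIN3 (0.96), FKBP9 (0.95) and IRS2 (0.94) for HAND2, and MYC (0.94), NAP1L3 (0.93) and PCOLCE (0.92) for ISL1. For HAND1 they were NUTF2 (0.90), TLE3 (0.87) and ACTB (0.87), for GATA3 PRKACA (0.87), NECTIN1 (0.86) and RARA (0.86), for PHOX2A ERCC1 (0.86), SF3A2 (0.85) and SCAF1 (0.85), and for GATA2 C1QL1 (0.85), MID1IP1 (0.84) and HSF1 (0.83).

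All 13 other regulators of the adrenergic state were tested. In untreated cells 3 were higher in the libraries labelled TRPM2 KO (SIX3 by 0.38, SATB1 by 0.39 and DACH1 by 1.23 on the log2 scale) and 2 lower (EYA1 by 0.45 and PBX3 by 0.35), beside 4.84% of all genes called. After Doxo none was higher and 4 were lower, EYA1 (-0.66), PBX3 (-0.65), TFAP2B (-0.44) and ZNF536 (-0.25), beside 8.69% of all genes. TFAP2B, a factor of sympathetic and neural crest cells, stood after Doxo at 342 and 294 normalized CPM in KO11 and 308 and 305 in KO28, against 361 and 350 in Scr13 and 471 and 540 in Scr16 (adjusted p = 0.00947). The groups did not overlap, but Scr13 lay near KO11 replicate 1, and most of the difference came from Scr16. The median log2 fold change of the list was 0.09 untreated and -0.11 after Doxo, beside -0.01 and 0.01 over all genes. With Doxo, 1 rose and 2 fell in Scr clones (median 0.02), beside 12.6% of all genes called, and 1 rose and 7 fell in clones labelled TRPM2 KO (median -0.26), beside 17.7%. The difference between these responses was called for 0 of the 13 by limma and 0 by edgeR, with 5 at an unadjusted p under 0.05 in each (SOX11, TFAP2B, SIX3, PBX3 and SATB1 by limma), all of negative sign. Over all genes, 1260 of 15325 were at an unadjusted p under 0.05 in this limma comparison. SOX4, the most abundant, was called in no comparison, with group means of 491 to 561 normalized CPM.

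Among 11 partners and relatives of the core factors, 10 were in the tables and 9 were tested, of which 1 was called between genotypes untreated and 2 after Doxo, beside 4.84% and 8.69% of all genes. LMO4, a LIM-only protein that binds the LDB1 partner of ISL1, differed most. It was at 2.87, 2.88, 2.64 and 4.60 normalized CPM in untreated Scr libraries and at 34.3, 35.3, 27.1 and 26.9 in those labelled TRPM2 KO. After Doxo it was at 0.178, 0.820, 2.00 and 1.56 in Scr libraries and at 17.5, 15.2, 13.2 and 14.5 in those labelled TRPM2 KO. The groups were far apart in both conditions (log2 fold changes 2.92 ± 0.18 and 2.99 ± 0.27 with a pseudocount of 1, adjusted p = 2.96e-09 and 1.51e-07), and LMO4 fell with Doxo in both genotypes. TCF3, an E protein that pairs with HAND factors, was lower after Doxo in libraries labelled TRPM2 KO (-0.26 ± 0.08, adjusted p = 0.0461). TBX3, the closest relative of TBX2 and the most abundant of the list at group means of 841 to 966, was called in no comparison, and LDB1 in none. With Doxo, 1 of the 9 fell in Scr clones and 4 in clones labelled TRPM2 KO (LMO4, INSM2, TCF3 and TCF12), beside 12.6% and 17.7% of all genes called, and none rose.

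Of 17 noradrenergic and neuronal genes, 16 were tested. TH, the gene of the rate-limiting enzyme of catecholamine synthesis, did not pass the filter and reached at most 1.13 normalized CPM, so a defining gene of the noradrenergic cell was near 0 while DBH was at 1204 or more in every library. In untreated cells 5 were lower in libraries labelled TRPM2 KO (PRPH by 2.24, GCH1 by 0.73, RET by 0.49, GAP43 by 0.35 and SLC6A2 by 0.27) and none higher, beside 4.84% of all genes called. After Doxo, where 8.69% of all genes were called, PRPH (-2.50), GCH1 (-0.67) and GAP43 (-0.35) were lower, and CHRNA3 (0.45), ELAVL4 (0.41) and SLC18A1 (0.40) were among those higher. The median log2 fold change was -0.16 untreated and 0.00 after Doxo, beside -0.01 and 0.01 over all genes.

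With Doxo, RET, the receptor of GDNF family ligands, rose from 402 to 678 normalized CPM in Scr clones (0.75 ± 0.07, adjusted p = 1.84e-09) and from 286 to 598 in clones labelled TRPM2 KO (1.07 ± 0.07, adjusted p = 6.10e-13). In all, 5 of the 16 noradrenergic genes rose and 3 fell in Scr clones, beside 12.6% of all genes called in either direction, and 6 rose and 4 fell in clones labelled TRPM2 KO, beside 17.7%. The difference between these responses was called for 0 of the 16 by limma and 0 by edgeR. At an unadjusted p under 0.05 there were 5 by each, with 0 of negative sign, beside 1260 of 15325 genes by limma. CHGA, among the genes that fell in clones labelled TRPM2 KO, was low in all libraries except KO11 untreated replicate 2. It was at 2.59 and 26.4 normalized CPM in untreated KO11, 1.21 and 1.46 in untreated KO28, and 0.441 to 1.28 in these clones after Doxo.

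Of 20 markers of the mesenchymal state, 18 were in the tables and 14 were tested between genotypes. In untreated libraries labelled TRPM2 KO 8 were higher and 1 lower, and after Doxo 10 were higher and 1 lower, beside 4.84% and 8.69% of all genes called. The median log2 fold changes were 0.67 and 1.37, beside -0.01 and 0.01 over all genes. The 14 genes were not the same, since COL1A2 (0.61) was tested in untreated libraries alone and FOSL1 after Doxo alone. Higher in both conditions were VIM (1.10 and 1.23), FN1 (1.55 and 2.14), COL1A1 (1.52 and 1.51), SPARC (0.38 and 0.46), FOSL2 (0.73 and 0.78), YAP1 (1.91 and 2.18) and TGFBR2 (1.20 and 1.72), with NOTCH3 (0.56) in untreated cells and CD44 (1.76), FOSL1 (1.68) and MAML2 (1.61) after Doxo. TWIST1, also a neural crest factor, was lower (-0.53 and -0.64). With Doxo, 2 of 16 rose in Scr clones, and 4 rose and 1 fell in clones labelled TRPM2 KO, beside 12.6% and 17.7% of all genes called. The summed level of the 18 markers was 935 ± 170 normalized CPM in Scr untreated, 1289 ± 116 in TRPM2 KO untreated, 964 ± 132 in Scr Doxo and 1369 ± 166 in TRPM2 KO Doxo libraries (SD, n = 4). VIM, the most abundant in both TRPM2 KO groups, was at 188 ± 92.8, 369 ± 44.9, 168 ± 63.0 and 376 ± 47.2 in these 4 groups. In the Scr groups TWIST1 was above it, at 260 ± 9.86 untreated and 303 ± 17.1 after Doxo. The untreated Scr13 libraries stood apart from each other, at 302 and 87.3 for VIM and 160.2 and 36.7 for FN1, and Scr13 replicate 1 lay near the lowest untreated libraries labelled TRPM2 KO (322 and 167). The markers that passed moved with the genotype label, TWIST1 downwards, while NOTCH2 (-0.08 and -0.06) and SNAI2 (-0.08 and 0.29) passed in neither condition. Their part in the differences of the core factors, among them TBX2, was not tested.

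Schwann cell markers were near absent. Of 7 markers, 4 were in the tables, 2 were tested, none was called, and their summed level was 3.03 to 4.41 normalized CPM as group means. GATA6, PRRX1, MEOX2, SOX10, FOXD3 and CDH19 were not analysed here.

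**Figure D4:**
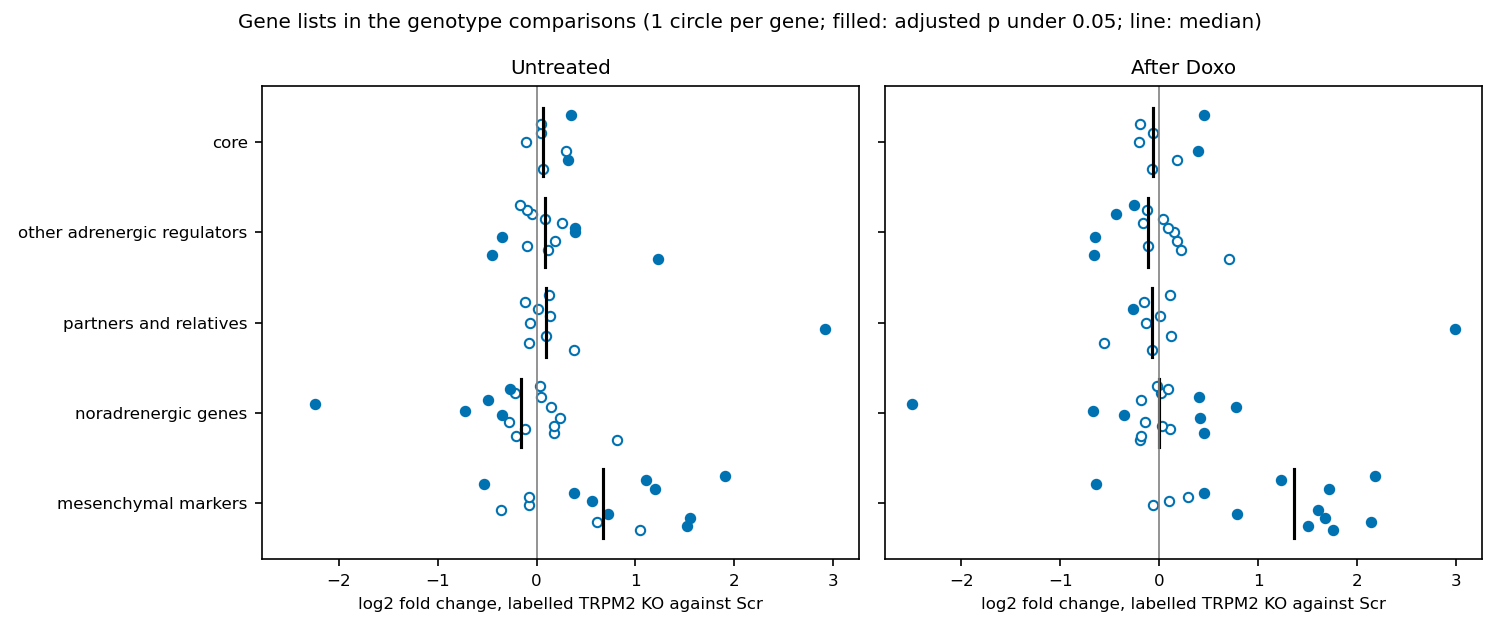
log2 fold change of libraries labelled TRPM2 KO against Scr (horizontal axis) for each tested gene of 5 lists, untreated on the left and after Doxo on the right. Circles are genes (filled, adjusted p under 0.05) and black lines list medians, which lie at 0.06 and -0.06 for the core and at 0.67 and 1.37 for the mesenchymal markers.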

How the data were processed

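RNA of 16 libraries was sequenced with a directional poly(A) kit. Per the labels and methods, the authors aligned reads with HISAT2 2.1.0 to GRCh38, counted them per gene with HTSeq and normalized them with edgeR, and deposited normalized signal values, CPM scaled by edgeR factors, in 1 table for untreated and 1 for Doxo libraries. The filter, the annotation and the strand setting are not given in the sources used here. Columns of the authors' own comparisons (fold changes, p-values, q-values and ranks) were not used. The values were whole multiples of 1 read for 100% of entries (largest deviation 5.39e-05 reads), so reads could be recovered. limma 3.58.1 with a trend (R 4.3.3) was run on log2(normalized CPM + 1) for genes that reached 1 normalized CPM in 4 or more libraries, with Benjamini-Hochberg adjustment over all genes tested and a threshold of 0.05. Fold changes on this scale understate those of low genes. KO against Scr was fitted within each table. The Doxo responses, the interaction and the clone comparisons were fitted on all 16 libraries after 1 joint scaling of the recovered reads, with a clone term, while levels in the text are as deposited. edgeR 4.0.16 and DESeq2 1.42.0 on recovered reads, other filters, pseudocounts and left-out libraries and clones were alternatives. Single genes were also tested by an exact permutation test. All core members were named, with every gene of the other lists called between genotypes (otherwise up to 4 of the most abundant), and the 3 genes most correlated with each member, except that some genes of the lists are not reported here. Further genes called only in Doxo responses (GATA2-AS1, ISL1-DT, INSM2, DBH and CHGA) were named after their values were seen. Members and lists were chosen with earlier results of these data known. Counting limits cover counting error only, since reads carry no molecular identifiers. The limma fit was tested on simulated data. In every pair of same-clone replicates the difference exceeded sampling noise (chi-square per gene 7.79 to 16.9).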

Additional observations from a re-analysis of the deposited data

Results flagged for a closer look

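In 28 groups of 4 libraries tested by Dixon's criterion (7 members in 4 groups), 2 held a library far from the other 3, where chance flags about 1 group in 20. GATA3 in TRPM2 KO Doxo libraries was at 709.6 normalized CPM in KO11 replicate 2, below 825 to 847 in the others, and without that library its log2 difference from Scr after Doxo was 0.24 (adjusted p = 0.0918), beside 0.18 with it. ISL1 in TRPM2 KO Doxo libraries was at 144 normalized CPM in KO28 replicate 2, above 124 to 126 in the others, and without that library its Doxo response in clones labelled TRPM2 KO was -0.42 (adjusted p = 0.000672), beside -0.38 with it. Neither call changed.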

How the results depend on the processing

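Of 875 recomputed values of single members, 810 kept their sign and their side of the threshold, 39 lost the call, 3 gained it and 23 changed sign, all 23 for values that were not called. The calls of HAND1 and TBX2 after Doxo were kept in every alternative. Precision is limited by 2 clones per genotype, and INSM1 had too few reads to be compared.

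The number of members called between genotypes in untreated cells, 2, was 0 with no filter, 0 to 3 with single libraries left out, 3 without the clone KO11, 0 without KO28 or Scr16, and 1 without Scr13 or with the mean per clone. That of the Doxo response in Scr clones, 2, was 1 to 2 with single libraries left out, 0 without the clone Scr13 and 1 without Scr16. That in clones labelled TRPM2 KO, 3, was 1 to 3 and, without the clone KO11, 0.

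All genes called numbered 695 in untreated cells, against 368 with no filter, 330 without the clone Scr13 and 327 without Scr16. After Doxo they numbered 1266, against 814 to 1314 with single libraries left out (814 without KO11 replicate 1), 510 without the clone KO11 and 575 without KO28. The Doxo response called 1931 genes in Scr clones, against 567 without the clone Scr13 and 907 without Scr16, and 2714 in clones labelled TRPM2 KO, against 926 without KO11 and 1418 without KO28. The interaction called 5 genes, against 1 to 18 with single libraries left out, 10 with edgeR, 3 with no clone term, 3 with a pseudocount of 0.25, 0 without the clone KO11, 1 without KO28, 10 without Scr13 and 1 without Scr16. KO28 against KO11 called 8 genes, against 0 in Doxo libraries alone. Scr16 against Scr13 called 2, against 4 with edgeR, 1 in untreated and 29 in Doxo libraries alone. The cause of the differences in these counts and in those of members was not tested.

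Signs changed as follows, on the log2 scale. Without the clone KO28, PHOX2A was -0.089 and GATA2 -0.020 between genotypes untreated, and PHOX2A was 0.078 and HAND1 0.13 in the Doxo response of clones labelled TRPM2 KO. Without KO11, GATA2 was -0.045 and GATA3 -0.043 in that response and HAND1 -0.073 in the interaction. Without Scr16, ISL1 was 0.047 between genotypes after Doxo and 0.031 in the interaction. HAND1 was -0.022 between KO28 and KO11 in Doxo libraries. Between Scr16 and Scr13, HAND2 was 0.0048 with edgeR and 0.020 in untreated libraries, GATA2 -0.092 in Doxo libraries and ISL1 -0.057 in untreated libraries. With single libraries left out, PHOX2A ranged from -0.035 to 0.12 between genotypes untreated, and in the Doxo response of clones labelled TRPM2 KO PHOX2A ranged from -0.11 to 0.019, HAND1 from -0.13 to 0.024, GATA2 from -0.018 to 0.051 and GATA3 from -0.042 to 0.066.

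Over all genes, libraries with the same replicate number shared little: 28 correlations of their deviations between clone and treatment groups ran from -0.101 to 0.12. Such a correlation over all genes cannot show whether single genes followed the replicate number. FN1 was higher in replicate 1 than in replicate 2 of every clone in both treatments. GATA2 and TBX2 were higher in replicate 2 in each clone and treatment except KO11 after Doxo. With the replicate block, no member's call changed, and the genes called numbered 697, 1365, 2106 and 2840 in the genotype comparisons untreated and after Doxo and the Doxo responses of Scr clones and of clones labelled TRPM2 KO, 24 in the interaction, 15 in KO28 against KO11 and 6 in Scr16 against Scr13.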
